A study of Mus musculus with 14 samples.

Results

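The type I interferon-stimulated genes are the genes that a cell switches on when interferon-alpha or interferon-beta binds its receptor. A set of 39 of them was taken by gene symbol from a table of 43432 mouse genes, and all 39 were found. No measured value enters the rule, but the set was proposed with earlier results of these data known. All 39 also passed the filter on low values, a normalized count of 10 or more in 2 or more libraries. RNA was sequenced from lung cells of male 129S1 mice aged 10 to 12 weeks, an inbred strain, that had received bleomycin or water through the trachea. Bleomycin is a DNA-damaging drug that injures the lung and is used to model fibrosis, and its labelled dose was 3 U/k. Cells positive for SiglecF and CD11c, a pair of surface proteins that marks alveolar macrophages, were sorted as high or low for MHC class II (MHCII), the molecule that presents peptides to helper T cells. There were 5 groups and 14 libraries: 2 libraries (replicates 1 and 3 by their labels) came from mice given water and held MHCII-low cells, and 3 libraries each came from the MHCII-low and the MHCII-high sort, 2 weeks and 4 weeks after bleomycin. The controls were MHCII-low only, so a change after bleomycin was measured in MHCII-low cells alone. A pair of sorter models is named, neither tied to a sample. The labels do not say whether replicates came from separate mice, so p-values measure the spread between these libraries, which may be technical.

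Interferon-alpha and interferon-beta are secreted after a cell senses viral or misplaced nucleic acid, and they act on neighbouring cells through a receptor made of IFNAR1 and IFNAR2. The receptor's kinases TYK2 and JAK1 phosphorylate STAT2, which joins IRF9 in the factor ISGF3, and ISGF3 binds the interferon-stimulated response element (ISRE) in the promoters of its targets. The products detect viral RNA, degrade it, block its translation or stop particles from entering and leaving the cell, and alveolar macrophages are among the lung cells known to produce and answer type I interferon.

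The ISRE is the sequence through which these genes are switched on, so the promoters that hold its letters are shown first for 5 members. RefSeq promoter windows (GRCm38.p6), from 250 bases before to 50 bases after the annotated start, were found for 29 of the 39 members. The letters GAAANNGAAA, searched on both strands, occurred in 12 of the 29 (41.4%), against 3.99% of 27025 mouse genes with a window. The letters TTCNNNGAA, the gamma-activated site (GAS), read the same on both strands and occurred in 9 of the 29 (31.0%), against 9.55% of all genes. The stretches below run 5′ to 3′ on the gene's strand from 150 bases before to 30 bases after the start, and capitals mark the ISRE letters, which read TTTCNNTTTC where the match lies on the opposite strand. They lie at chr19:34640739-34640918 (plus strand) for Ifit1, chr7:141010715-141010894 (minus) for Ifitm3, chr4:156200789-156200968 (minus) for Isg15, chr5:120777630-120777809 (minus) for Oas3 and chr12:26456423-26456602 (minus) for Rsad2.
Ifit1: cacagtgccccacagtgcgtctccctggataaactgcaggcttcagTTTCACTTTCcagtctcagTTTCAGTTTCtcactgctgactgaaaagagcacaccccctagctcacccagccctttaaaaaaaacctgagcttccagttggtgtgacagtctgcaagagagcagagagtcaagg
Ifitm3: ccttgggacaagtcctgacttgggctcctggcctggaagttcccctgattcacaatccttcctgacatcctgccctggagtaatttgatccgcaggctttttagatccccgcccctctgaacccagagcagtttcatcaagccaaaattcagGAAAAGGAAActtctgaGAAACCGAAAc
Isg15: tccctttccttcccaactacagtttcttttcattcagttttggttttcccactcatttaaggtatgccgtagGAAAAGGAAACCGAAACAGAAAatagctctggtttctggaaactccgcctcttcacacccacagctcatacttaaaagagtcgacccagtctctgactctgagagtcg
Oas3: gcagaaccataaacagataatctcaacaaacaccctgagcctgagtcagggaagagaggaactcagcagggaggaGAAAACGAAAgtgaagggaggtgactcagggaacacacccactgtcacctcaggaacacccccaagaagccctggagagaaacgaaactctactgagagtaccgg
Rsad2: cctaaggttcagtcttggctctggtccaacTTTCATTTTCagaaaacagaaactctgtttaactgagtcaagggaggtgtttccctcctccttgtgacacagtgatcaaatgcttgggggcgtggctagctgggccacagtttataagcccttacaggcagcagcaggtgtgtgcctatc
Ifit1 held a pair of matches within 104 bases before its start, and Isg15 held 3 that overlap each other, from 78 to 57 bases before it. Oas3 had 1 match 75 to 66 bases before the start and Rsad2 had 1 at 120 to 111 bases. Ifitm3 had both of its matches after the start. The other members with a match were Bst2, Eif2ak2, Ifih1, Ifit3, Oas1a, Stat2 and Trim30a. Of the 13 members that passed the test in at least 1 of the 9 comparisons below (10.3% of all genes did), 9 had a window and 4 of these held the letters (Ifit1, Ifitm3, Oas3 and Rsad2). A match is a description of the letters, and its absence says only that they are not in this window.

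Reads recovered from the normalized counts ranged from 15106415 to 88059566 per library, and mitochondrial ribosomal RNA (mt-Rnr1 and mt-Rnr2) took 3.12% to 28.99% of them. This share was 21.67% to 24.08% in controls and 22.51% to 26.25% in MHCII-high cells at 2 weeks, both above the 3.42% to 18.32% of MHCII-low cells at 2 weeks without overlap. At 4 weeks it was 3.12% to 23.15% in MHCII-low and 8.12% to 28.99% in MHCII-high cells. A gene with 0 reads could have had up to 3, worth 1.17 to 6.71 normalized counts, and no molecular identifiers are described, so this limit covers counting error only. Under 10 reads in at least 1 library were counted for 7 members (Ifit3, Isg15, Usp18, Oasl1, Rtp4, Isg20 and Mx2), so their values there are coarse. The defining markers of the sort were present in every library: Siglecf, the gene of the sorted lectin, ranged from 3056 to 9551 and Itgax, the gene of CD11c, from 25185 to 44133 normalized counts. In bulk RNA, fewer cells of a type and less RNA per cell cannot be told apart.

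Members differed widely in level. Per kilobase of exon and averaged over all libraries, Lgals3bp (a secreted glycoprotein that binds galectin-3) stood at 5987 normalized counts per kb and Samhd1 (a dNTP-degrading enzyme) at 3034, followed by the transcription factor subunit Stat2 at 1084. Isg15, the ubiquitin-like modifier, had 49.6 per kb and ranked 27th, while Ifit3 (15.0) and Mx2 (14.6) were the lowest on this scale. The mean over libraries was highest in MHCII-high cells at 2 weeks for 25 of the 39 members. It was lowest in controls for 13 members and lowest in MHCII-low cells at 4 weeks for 14. MHCII-high replicate 3 at 2 weeks alone held the highest of the 14 values for 14 members. Its median deviation from a member's mean over all libraries was 0.74 on the log2 scale, against 0.53 and 0.37 in the other two libraries of its group. The medians were 0.04 to 0.19 in MHCII-low cells at 2 weeks, −0.10 to 0.07 in MHCII-high cells at 4 weeks, −0.26 and −0.18 in controls and −0.41 to −0.24 in MHCII-low cells at 4 weeks. Counts of members at their highest or lowest in a group or library, here and below, were not made over all genes.

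**Figure D1:**
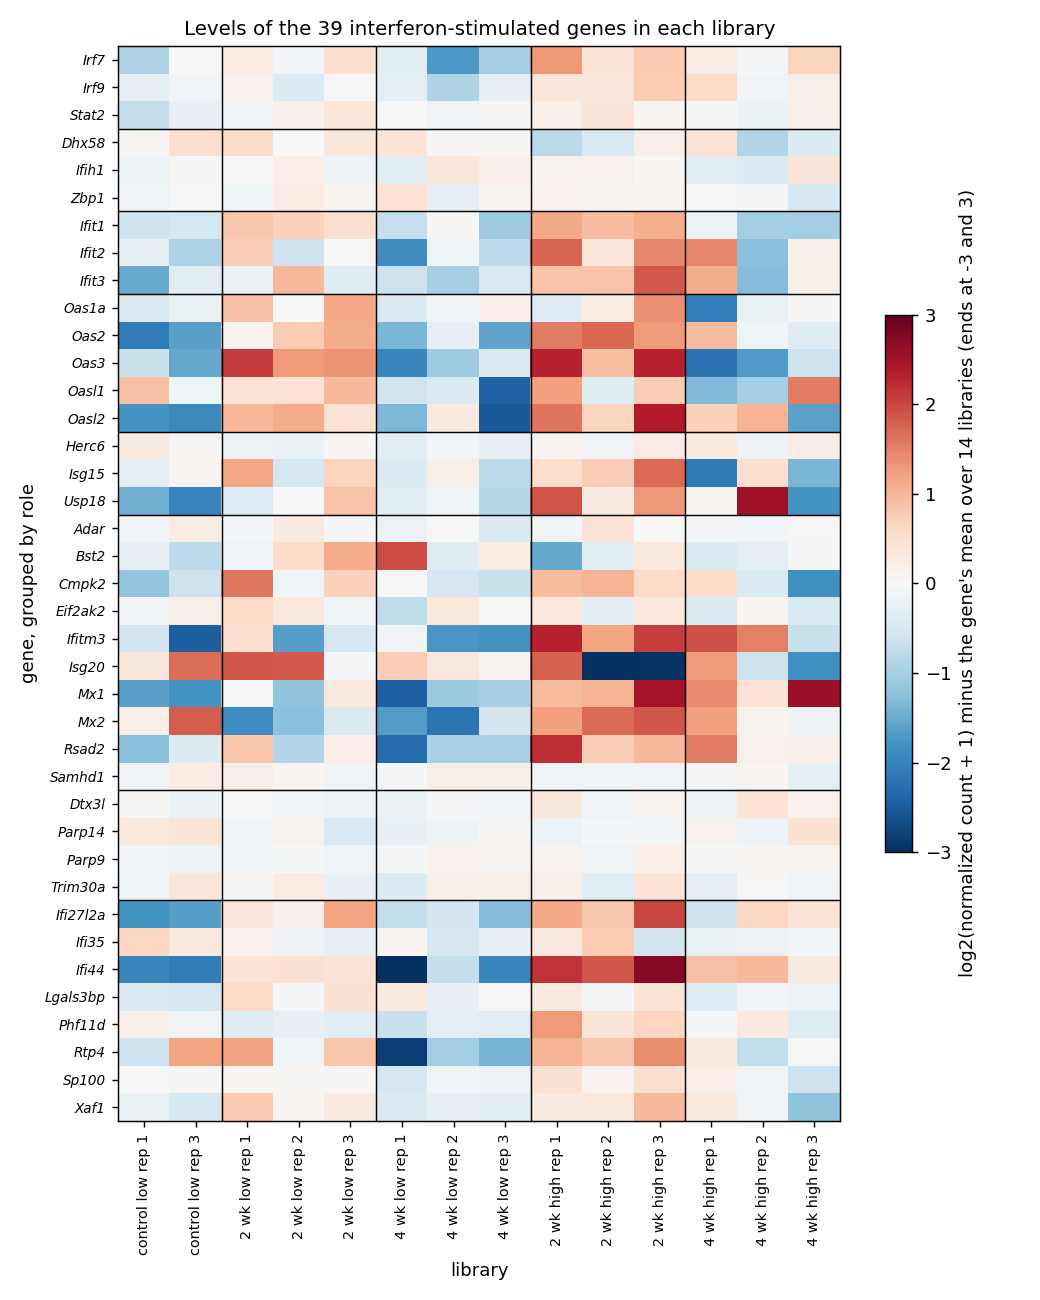
Level of each of the 39 members (rows, grouped by role) in each of the 14 libraries (columns), as log2(normalized count + 1) minus the member's mean over the libraries; red is above and blue below that mean. The 3 MHCII-high libraries at 2 weeks have median deviations of 0.37 to 0.74 and the 3 MHCII-low libraries at 4 weeks of −0.41 to −0.24, while rows such as Samhd1, Parp9 and Adar stay near 0 throughout.

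MHCII-low cells 2 weeks after bleomycin were compared with MHCII-low control cells to find the change after injury. Of the 39 members, 5 rose (Oas2, Oas3, Ifi44, Ifi27l2a and Lgals3bp) and 0 fell at an adjusted p of 0.05 in limma's fit over all genes, where 1.48% of all 17390 genes tested rose and 0.426% fell. The members' log2 fold changes had a median of 0.53 and were above 0 for 30 of 39, against a median of −0.09 and 43.87% above 0 over all genes. In 15 members every 2-week library lay above both controls, as it did for 13.7% of all genes. In 4 members (Ifi35, Mx2, Parp14 and Phf11d) every 2-week library lay below both, as it did for 21.6% of all genes. The comparison rests on 2 controls: without control replicate 1 none of the 5 calls passed, and without any other single library 1 to 3 members did. With the share of mitochondrial ribosomal RNA, which was higher in both controls, as a covariate, Oas3 (adjusted p = 0.079) and Lgals3bp (0.19) no longer passed, Oas2, Ifi44 and Ifi27l2a did, and Oasl2 passed in addition (0.047). The same 2-week MHCII-low libraries also enter the comparisons with MHCII-high cells and with 4 weeks below.

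At 4 weeks, none of the 39 members differed from control in MHCII-low cells by limma, limma voom, edgeR or DESeq2, and 0.046% of all genes did by limma. An unadjusted p under 0.05 was reached by 5 members, 2 higher and 3 lower, against 1065 of all 17390 genes. The median log2 fold change was −0.04, against −0.06 over all genes, and 16 members were above 0. Values with an SE, here and below, are log2 fold changes of normalized counts plus 1 from limma. The smallest p-values belonged to Mx2, at −2.49 ± 0.90 (SE, adjusted p = 0.68), Rtp4, at −2.04 ± 0.80 (SE, adjusted p = 0.71), and Lgals3bp, at 0.49 ± 0.20 (SE, adjusted p = 0.74). This comparison and the preceding one share the control libraries.

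From 2 to 4 weeks, 3 of 39 members fell in MHCII-low cells (Ifi44, Oas3 and Oas2) and 0 rose, where 0.748% of all genes fell and 0.109% rose. In MHCII-high cells Oas3 fell and 0 rose, where 0.759% of all genes fell and 0.311% rose. The median log2 fold change was −0.59 in MHCII-low cells (0.03 over all genes) and −0.53 in MHCII-high cells (−0.07 over all genes). All 4-week libraries lay below all 2-week libraries for 13 members in MHCII-low cells, against 6.76% of all genes, and for 12 in MHCII-high cells, against 9.06%. No member showed the reverse order in either population, against 7.22% of all genes in MHCII-low and 5.9% in MHCII-high cells. These 2 comparisons have no library in common. A negative log2 fold change in both was found for 30 members, against 29.43% of all genes, and 8 were below −1 in both (Ifit1, Oas2, Oas3, Oasl2, Cmpk2, Rtp4, Ifi44 and Ifi27l2a), against 3.68%. The mean of both changes was tested as a comparison added after the data were seen, on the same libraries, and 6 members passed it: Oas3, Ifi44, Oas2, Ifit1, Oasl2 and Ifi27l2a, all lower, where 2.09% of all genes fell and 0.84% rose. Leaving that comparison out, 11 of 39 members passed in at least 1 of 8 comparisons, where 9.32% of all genes did. The median of the added comparison was −0.62, against −0.02 over all genes, and 34 of 39 members were below 0. The calls of Oas3, Ifi44, Oas2 and Ifit1 in it held without any single library, and those of Oasl2 and Ifi27l2a were each lost without any 1 of 8 libraries (adjusted p up to 0.12 and 0.13) and with the mitochondrial ribosomal RNA share as a covariate (0.063 and 0.06).

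**Figure D2:**
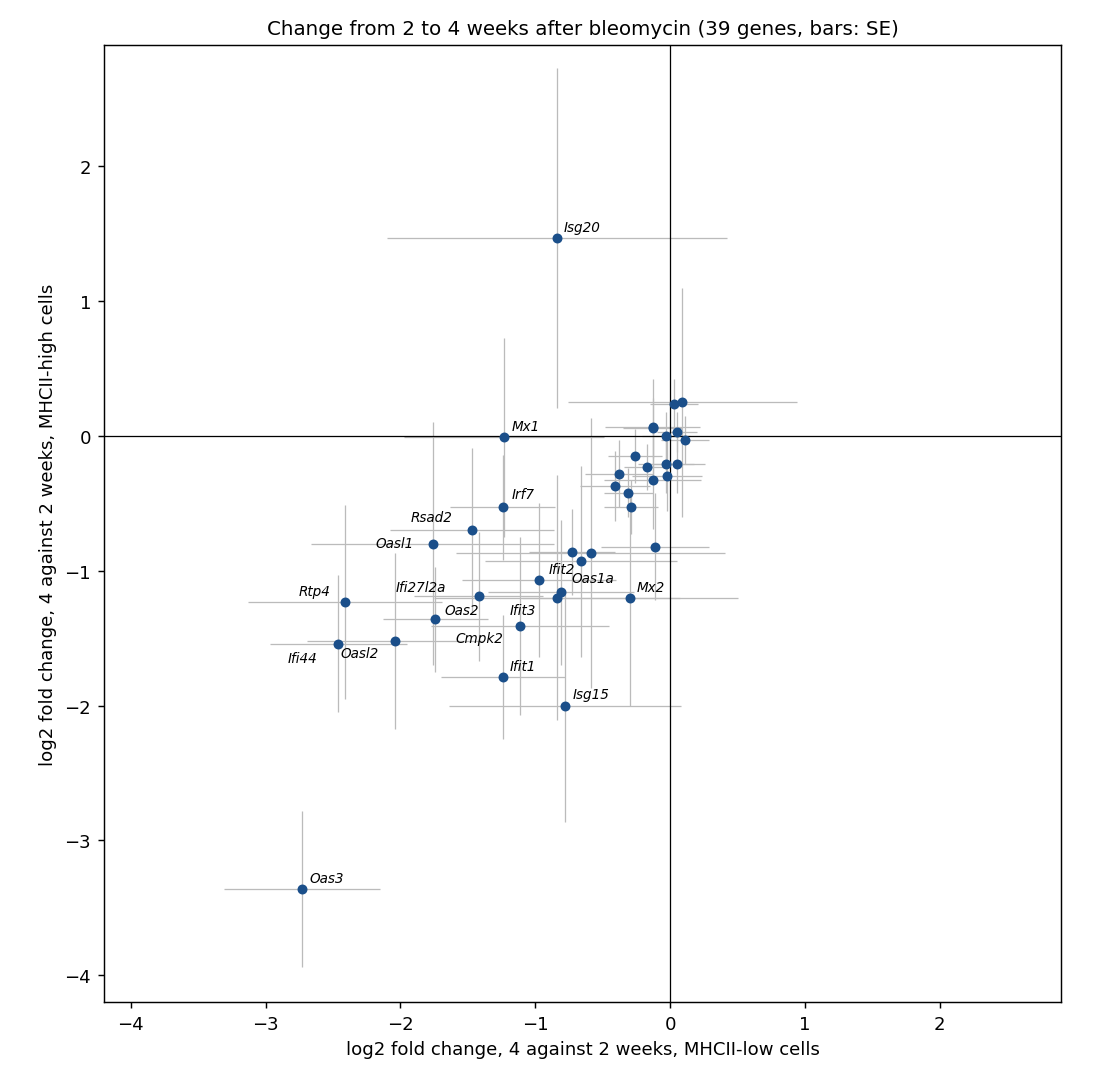
Log2 fold change from 2 to 4 weeks in MHCII-low cells (horizontal) against that in MHCII-high cells (vertical) for the 39 members, with bars for the SE; members at or beyond 1 in either are named. In the lower left quadrant lie 30 members, with Oas3 farthest out at −2.73 and −3.36, and the 2 axes have no library in common.

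The sorted populations were compared at each time and over both. At 2 weeks 0 of 39 members differed between MHCII-high and MHCII-low cells by limma, where 2.87% of all genes did. An unadjusted p under 0.05 was reached by 8 members there, against 2675 of all 17390 genes. edgeR called 1 member, limma voom 2 and DESeq2 4, where they called 432, 558 and 1055 of all genes. At 4 weeks Ifi44 and Mx1 were higher in MHCII-high cells and 0 were lower, where 1.96% of all genes were higher and 0.535% lower. For the mean of both times, 8 members were higher (Ifi44, Mx1, Ifitm3, Mx2, Rsad2, Oas2, Irf9 and Irf7) and 0 lower, where 5.0% of all genes were higher and 2.21% lower. Without MHCII-high replicate 1 at 2 weeks, 1 member, Isg20, was lower at 2 weeks and over both times. The members' median log2 fold change was 0.27 at 2 weeks (0.08 over all genes), 0.17 at 4 weeks (−0.03) and 0.18 for the mean of both (0.02). MHCII-high libraries all lay above MHCII-low libraries for 9 members at 2 weeks, against 12.9% of all genes, and for 7 at 4 weeks, against 8.26%. They all lay below for 0 members at either time, against 8.26% of all genes at 2 weeks and 8.13% at 4 weeks. Log2 differences above 1 at both times were found for 6 members (Ifit2, Mx1, Mx2, Rsad2, Ifitm3 and Ifi44), against 7.18% of all genes. Whether the difference between populations changed with time was tested as an interaction: 0 of 39 members passed by limma, limma voom, edgeR or DESeq2, 0 reached an unadjusted p under 0.05, and 0.0% of all genes passed by limma (987 at an unadjusted p under 0.05). The smallest p-values belonged to Irf7 at 0.71 ± 0.55 (SE, adjusted p = 0.93), Isg20 at 2.30 ± 1.78 (SE, adjusted p = 0.93) and Ifi44 at 0.92 ± 0.72 (SE, adjusted p = 0.93).

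**Figure D3:**
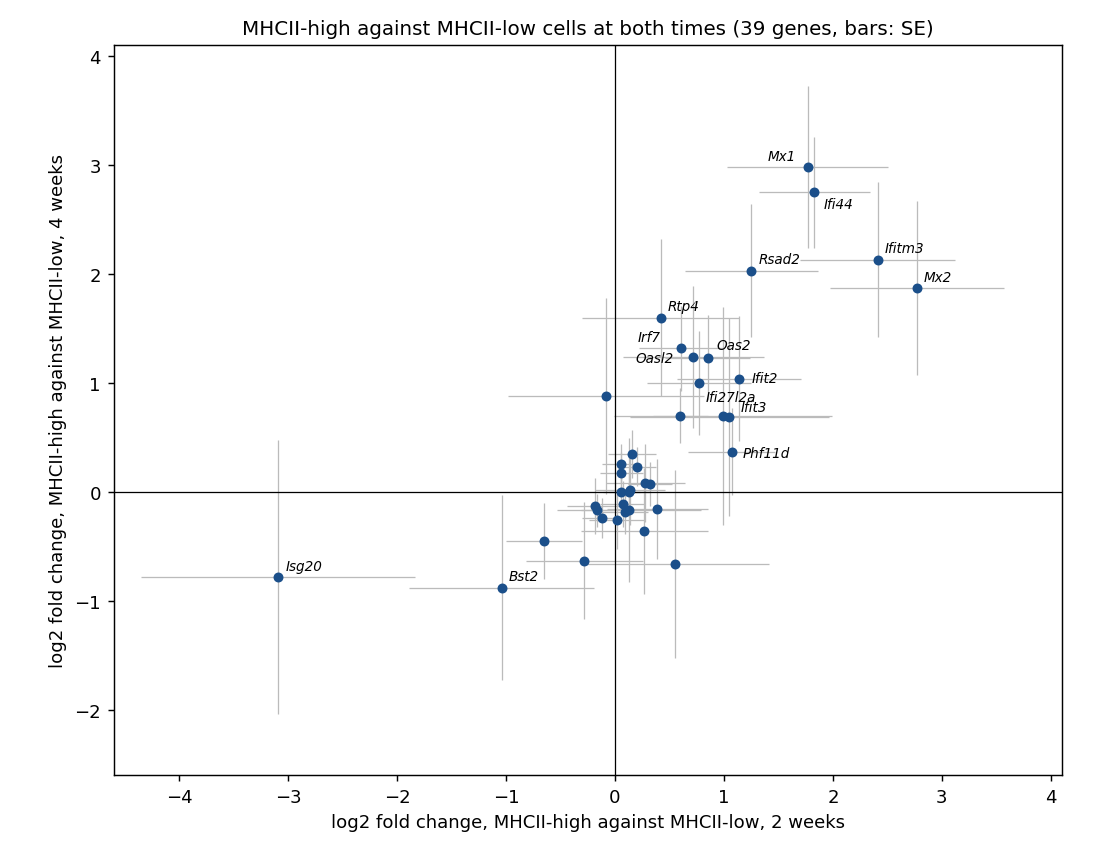
Log2 fold change of MHCII-high against MHCII-low cells at 2 weeks (horizontal) and at 4 weeks (vertical) for the 39 members, with bars for the SE; members at or beyond 1 in either are named. Mx1, Mx2, Ifi44, Ifitm3, Rsad2 and Ifit2 lie above 1 on both axes, 22 members are above 0 on both, and Isg20 lies at −3.09 on the horizontal axis with an SE of 1.26.

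Markers of other cell types moved with these comparisons. The summed level of 9 interstitial or monocyte-derived macrophage markers was 22604 to 33570 normalized counts in MHCII-high and 1827 to 3712 in MHCII-low cells at 2 weeks, 9162 to 12913 and 626 to 1033 at 4 weeks, and 389 and 412 in controls. The 9 monocyte markers summed to 14709 to 16348 in MHCII-high and 4398 to 5177 in MHCII-low cells at 2 weeks, and 6831 to 9823 and 3106 to 3921 at 4 weeks. The 8 markers of plasmacytoid dendritic cells, the classical high producers of type I interferon, summed to 1973 to 2813 in MHCII-high and 890 to 1063 in MHCII-low cells after bleomycin. Most of that sum was Tcf4, while the defining Siglech was at 0 in 9 of 14 libraries and reached at most 66.6, and Klk1 was at 0 in all. The 7 neutrophil markers summed to 14202 to 15577 in MHCII-low cells at 2 weeks, 7335 to 8236 at 4 weeks and 5092 to 9162 in controls; the defining Ly6g was at most 22 and at 0 in 11 libraries. The sum of the 8 alveolar epithelium markers went the other way in MHCII-low cells, from 4048 to 11803 at 2 weeks to 20860 to 28372 at 4 weeks. It was 10314 and 19932 in controls. In MHCII-high cells it was 5517 to 14299 at 2 weeks and 7272 to 16912 at 4 weeks. Singly, 5 of the 8 had positive and 3 negative log2 fold changes from 2 to 4 weeks in MHCII-low cells. None of the 8 was called, where 0.748% of all genes fell and 0.109% rose. The 9 conventional dendritic cell markers summed to 979 to 2181 in MHCII-high and 102 to 230 in MHCII-low cells after bleomycin, and the 11 alveolar macrophage markers to 354077 to 449596 and 456790 to 648833. The 6 B lymphocyte markers summed to 804.5 to 3830 in MHCII-high cells and to 40.5 to 219 in MHCII-low cells after bleomycin, except MHCII-low replicate 1 at 4 weeks, which stood apart at 2187, most of it Ighm. All 6 were called higher in MHCII-high cells averaged over both times. That replicate also held the lowest of the 14 values for 10 members. Without it 0 members fell from 2 to 4 weeks in MHCII-low cells and 5 averaged over both populations. The loss was not particular to it: without MHCII-low replicate 2 or 3 at 2 weeks 0 members fell in MHCII-low cells too. Averaged over both populations 5 and 4 then fell. The 8 fibroblast and endothelium markers summed to 3373 to 5627 in MHCII-low cells at 2 weeks, against 1758 to 2869 at 4 weeks and 1987 and 2430 in controls, and 3 of the 8 fell over time averaged over both populations. Of the 9 interstitial or monocyte-derived markers, 7 were called higher in MHCII-high cells at 2 weeks, as were 398 of all 17390 genes. A log2 difference below 0, at −0.15, was found for 1 of the 9. At 2 weeks the MHCII-low arithmetic mean was 3.88% to 36.3% of the MHCII-high mean for the single interstitial or monocyte-derived markers. For the 13 members that passed in a comparison it was spread from 14.9% to 109.8%. It was 14.9% for Mx2, 21.3% for Ifitm3, 27.2% for Ifi44, 27.8% for Mx1, 42.0% for Rsad2 and 55.5% for Oasl2. It was 57.2% for Oas2, 57.8% for Ifi27l2a, 64.0% for Irf7, 66.2% for Irf9, 76.6% for Ifit1, 78.5% for Oas3 and 109.8% for Lgals3bp. Recovered reads also differed between times in MHCII-high cells, at 47015883 to 79446641 at 2 weeks and 15106415 to 30781834 at 4 weeks. The part of these markers and of depth in the members' differences was not tested.

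Upstream of the members, almost no interferon-alpha or interferon-beta transcript was found. Of 12 interferon ligand genes, 9 had no read in any library, among them Ifnb1, Ifna1, Ifna4 and Ifna5. Ifna2 had 8 reads in control replicate 1 and none elsewhere. Only Ifnk, the gene of interferon-kappa, passed the filter, with 8.9 to 77 normalized counts and 0 calls. Both genes of the type I receptor had reads in every library: Ifnar1 ranged from 2129 to 4167 and Ifnar2 from 2159 to 4927. Ifnar1 was higher in MHCII-high cells averaged over both times, at 0.42 ± 0.11 (SE, adjusted p = 0.021), and Ifnar2 differed by −0.31 ± 0.14 (SE, adjusted p = 0.21). Also higher in that comparison were the kinase gene Jak2, at 0.44 ± 0.13 (SE, adjusted p = 0.039) and the lambda receptor gene Ifnlr1, at 3.40 ± 0.91 (SE, adjusted p = 0.024). Ifnlr1 had only 0 to 25.5 normalized counts in MHCII-low and 19.5 to 320.1 in MHCII-high libraries. None of Ifnar1, Ifnar2, Jak2 and Ifnlr1 passed in the comparisons with control or over time.

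Of 15 genes that sense nucleic acid or carry the signal to interferon genes, Tmem173, which encodes the DNA-sensing adaptor STING, was the 1 that rose at 2 weeks in MHCII-low cells, from 1463 and 1062 to 2446, 2134 and 2883 normalized counts, or 0.99 ± 0.23 (SE, adjusted p = 0.027). Tlr9, the receptor for unmethylated DNA, separated the populations. It had 2 to 51.8 normalized counts in MHCII-low and 487 to 1209.9 in MHCII-high libraries, and its log2 difference was 5.36 ± 0.73 (SE, adjusted p = 0.00015) at 2 weeks and 6.03 ± 0.73 (SE, adjusted p = 2.3e-05) at 4 weeks. Ticam1, the adaptor of TLR3, was lower in MHCII-high cells averaged over both times, at −0.62 ± 0.15 (SE, adjusted p = 0.012). Among 7 negative regulators, 6 of them tested, Socs3 alone passed from control to 2 weeks and from 2 to 4 weeks in MHCII-low cells. Socs3, a cytokine-induced inhibitor of JAK kinases, stood in MHCII-low cells at 148 and 299.6 in controls, 776, 1207 and 1599 at 2 weeks and 263, 265 and 376 at 4 weeks. It rose by 2.44 ± 0.35 (SE, adjusted p = 0.00023) and fell by 1.94 ± 0.31 (adjusted p = 0.0014) on the log2 scale. Of the 6 tested, 1 was called higher in MHCII-high cells at 4 weeks and averaged over both times, where 1.96% and 5.0% of all genes were. From 2 to 4 weeks, averaged over both populations, 1 was called lower, where 2.09% of all genes were.

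Among the members, the transcription factors come first. Irf7, which drives interferon-alpha genes and is itself induced, lies at chr7:141262706-141266481 (GRCm38, minus strand). It had 166 and 318 normalized counts in controls, 376, 299 and 444 (2 weeks) and 254, 95.1 and 155 (4 weeks) in MHCII-low cells, and 782, 422 and 546 (2 weeks) and 379, 309 and 508 (4 weeks) in MHCII-high cells. The mean was lowest in MHCII-low cells at 4 weeks, and all their libraries lay below those of MHCII-high cells at the same time. The log2 difference between populations was 0.97 ± 0.27 (SE, adjusted p = 0.033) averaged over both times. Irf9, the DNA-binding subunit of ISGF3 (chr14:55603571-55610030, plus strand), had 684 and 757 normalized counts in controls, 890.5, 616 and 810.5 (2 weeks) and 668, 435 and 693 (4 weeks) in MHCII-low cells, and 1062, 1055 and 1385 (2 weeks) and 1232, 756 and 921 (4 weeks) in MHCII-high cells. The MHCII-high libraries lay above the MHCII-low ones at each time, by 0.65 ± 0.18 (SE, adjusted p = 0.028) on average. The call of Irf7 was lost without any 1 of 7 of the 12 libraries (adjusted p up to 0.1). That of Irf9 was lost without MHCII-low replicate 2 of either time, MHCII-high replicate 3 at 2 weeks or MHCII-high replicate 1 at 4 weeks (up to 0.081), and both were lost in edgeR's test on recovered reads. Irf7 overlaps the more abundant Phrf1 on the opposite strand and Irf9 overlaps the more abundant Rnf31 on the same strand, so some of their reads may be shared. Stat2, the ISGF3 subunit that is specific to interferon signalling, had 2858 and 3944 in controls and 4466, 5180 and 6077 in MHCII-low cells at 2 weeks. The libraries did not overlap, but the difference of 0.63 ± 0.19 (SE, adjusted p = 0.11) did not pass.

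The sensors Ifih1 (MDA5) and Dhx58 (LGP2), which bind viral double-stranded RNA, and Zbp1, which binds left-handed nucleic acid, passed in 0 comparisons. Ifih1 ranged from 2272 to 3920.4 normalized counts over all libraries, Dhx58 from 209 to 559 and Zbp1 from 386 to 750.4. Ifih1 and Zbp1 were within 0.5 on the log2 scale in all 6 comparisons of 2 groups.

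The IFIT proteins bind viral RNA ends and block translation, and their genes Ifit1, Ifit2 and Ifit3 form a cluster on chromosome 19. Ifit1 (chr19:34640871-34650009, plus strand) had 84.9 and 91.3 normalized counts in controls and 233, 213 and 183 in MHCII-low cells at 2 weeks, then 81.5, 134 and 61.8 at 4 weeks. MHCII-high cells went from 289, 252 and 281 to 119, 64.3 and 63.3. Every 2-week library lay above every 4-week and control library. Ifit1 fell by 1.51 ± 0.32 on the log2 scale (adjusted p = 0.0094) averaged over both populations, while its difference between populations was 0.11 ± 0.32 (SE, adjusted p = 0.89). Its change in MHCII-high cells alone, −1.79 ± 0.46 (SE, adjusted p = 0.061), did not pass. The paralog Ifit1bl1, which may share reads with it, moved likewise, from 170, 148 and 272 to 25.7, 38.2 and 56.5 in MHCII-low cells, and fell by 2.28 ± 0.52 (adjusted p = 0.034). Ifit2 and Ifit3 did not pass in any comparison. Their log2 changes from 2 to 4 weeks were −0.97 ± 0.57 and −0.84 ± 0.91 in MHCII-low cells and −1.07 ± 0.57 and −1.20 ± 0.91 in MHCII-high cells. Ifit2 ranged from 69.5 to 861 normalized counts over libraries. Ifit3 had 6.6 to 76.5 and may share reads with its near copy Ifit3b.

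The OAS proteins make the messenger 2-5A, which turns on the RNA-degrading enzyme RNase L, and 3 of their 5 genes in the set passed in at least 1 of the 9 comparisons, as did 10.3% of all genes. Oasl2 passed only in the comparison added after the data were seen. From 2 to 4 weeks, averaged over both populations, all 5 had negative log2 fold changes, with a median of −1.55. Oas3 (chr5:120753098-120777661, minus strand) encodes the largest OAS protein. It had 74 and 40.5 normalized counts in controls, 517, 288 and 304 (2 weeks) and 30, 55.9 and 87.4 (4 weeks) in MHCII-low cells, and 594, 222 and 596 (2 weeks) and 25, 36.1 and 75.5 (4 weeks) in MHCII-high cells. All 6 libraries at 2 weeks were above all 8 others, whichever the MHCII level. Oas3 rose from control by 2.68 ± 0.64 (SE, adjusted p = 0.03) at 2 weeks. Between 2 and 4 weeks it fell by 2.73 ± 0.58 (adjusted p = 0.019), or 6.64-fold, in MHCII-low cells. In MHCII-high cells it fell by 3.36 ± 0.58 (adjusted p = 0.0063), or 10.2-fold. The fall in MHCII-high cells passed without each single library, but not by limma voom or when only its 2 groups were fitted (adjusted p up to 0.17). That in MHCII-low cells was lost without every library but replicate 3 at 4 weeks (adjusted p up to 0.16), and the rise from control was lost without every library (up to 0.43).

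Oas2 (chr5:120730333-120749853, minus strand) lies next to Oas3. It had 82.2 and 114 normalized counts in controls, 385, 602 and 769 (2 weeks) and 138, 291 and 118 (4 weeks) in MHCII-low cells, and 1026, 1172 and 869 (2 weeks) and 689, 326 and 275 (4 weeks) in MHCII-high cells. MHCII-high cells at 2 weeks were highest, above all other libraries. Every MHCII-low library at 4 weeks still lay above both controls, but the difference of 0.79 ± 0.44 (SE, adjusted p = 0.87) did not pass. Oas2 rose from control by 2.52 ± 0.44 (SE, adjusted p = 0.0022), fell by 1.74 ± 0.39 (adjusted p = 0.035) in MHCII-low cells, and was higher in MHCII-high cells by 1.04 ± 0.28 (SE, adjusted p = 0.025) averaged over both times. Of the single libraries, only control replicate 1 ended the rise from control when left out (adjusted p = 0.066). The fall in MHCII-low cells was lost without replicate 2 or 3 at 2 weeks or replicate 1 or 3 at 4 weeks (up to 0.21), and the difference between populations without any 1 of 6 of the 12 libraries (up to 0.085).

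Oasl2 (chr5:114896936-114912234, plus strand), an OAS-like protein with ubiquitin-like domains, had 62.7 and 56.8 normalized counts in controls, 434, 473 and 291 (2 weeks) and 85.8, 262 and 37.3 (4 weeks) in MHCII-low cells, and 668, 349 and 1142 (2 weeks) and 354, 449 and 70.6 (4 weeks) in MHCII-high cells. Every 2-week library was above both controls, and its rise of 2.69 ± 0.73 (SE, adjusted p = 0.063) did not pass. Over both populations it fell by 1.78 ± 0.46 (adjusted p = 0.036) from 2 to 4 weeks. Oas1a and Oasl1 did not pass in any comparison. Oasl1 ranged from 5.3 to 98.6 normalized counts over libraries. Oas1a had 143 ± 17.6 (SD, n = 2) in controls and 302 ± 109.5 (SD, n = 3) in MHCII-low cells at 2 weeks. It may share reads with Oas1b, Oas1c and Oas1g, of which Oas1g went from 5.1 and 15.5 to 129.8, 63.7 and 76.5.

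Isg15 is a ubiquitin-like protein that is attached to other proteins by HERC6 in the mouse and removed by USP18, which also shuts off the receptor. None of the 3 genes passed. Isg15 itself was scarce, with 24.9 and 31.9 normalized counts in controls, 69.4, 20.7 and 48.5 (2 weeks) and 22.3, 34.3 and 17.1 (4 weeks) in MHCII-low cells, and 44.2, 50.8 and 101 (2 weeks) and 6.2, 42.4 and 11 (4 weeks) in MHCII-high cells. All MHCII-high libraries at 4 weeks lay below those at 2 weeks, and the change did not pass (adjusted p = 0.29). Usp18 had 8.2 and 5.2 in controls and 17.9, 23.9 and 44 at 2 weeks in MHCII-low cells. The MHCII-high libraries at 4 weeks held 25, 144 and 6.1, from near the controls to the highest of the 14. Herc6 ranged from 596 to 907.

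Of the 10 other antiviral effectors, Mx1, Mx2, Ifitm3 and Rsad2 were called higher in MHCII-high cells averaged over both times, as were 5.0% of all genes. Mx1 and Mx2 lie side by side on chromosome 16 and belong to the Mx family of GTPases, which block the replication of viruses. Many inbred mouse strains carry defective Mx genes, and the table lists Mx2 as a polymorphic pseudogene, so their values are RNA levels only. Mx1 (chr16:97447035-97462907, minus strand) had 17.5 and 15.5 normalized counts in controls, 55.9, 23.9 and 70.5 (2 weeks) and 9.4, 25.5 and 27.7 (4 weeks) in MHCII-low cells, and 109, 114 and 317 (2 weeks) and 152, 75.3 and 335 (4 weeks) in MHCII-high cells. All 6 MHCII-high libraries lay above all 8 MHCII-low libraries. The log2 difference was 2.98 ± 0.74 (SE, adjusted p = 0.033) at 4 weeks and 2.38 ± 0.53 (SE, adjusted p = 0.0067) averaged over both times, or 5.2-fold. The call at 4 weeks was lost without any 1 of its 6 libraries except the second MHCII-high replicate (largest adjusted p = 0.16), and that over both times passed without each of the 12. Mx1 differed between 4 and 2 weeks in MHCII-high cells by −0.01 ± 0.74 (SE, adjusted p = 1).

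Mx2 (chr16:97535308-97560900, plus strand) had higher values in controls than in MHCII-low cells after bleomycin. Its libraries had 40.5 and 127 normalized counts in controls, 8.9, 14.3 and 25.9 (2 weeks) and 10.3, 6.9 and 23.5 (4 weeks) in MHCII-low cells, and 83.9, 116 and 129.5 (2 weeks) and 83.2, 37.7 and 31.6 (4 weeks) in MHCII-high cells. Both controls lay above all MHCII-low libraries after bleomycin, and the change of −2.19 ± 0.90 (SE, adjusted p = 0.29) did not pass. MHCII-high cells exceeded MHCII-low cells by 2.32 ± 0.57 (SE, adjusted p = 0.014) averaged over both times and by 2.77 ± 0.80 (SE, adjusted p = 0.069) at 2 weeks. Ifitm3 (chr7:141009586-141010770, minus strand), a membrane protein that blocks viral fusion, had 94.3 and 24.1 normalized counts in controls, 197, 43 and 95.8 (2 weeks) and 130.3, 40.2 and 38.4 (4 weeks) in MHCII-low cells, and 683, 313 and 582 (2 weeks) and 520.3, 394 and 86.4 (4 weeks) in MHCII-high cells. At 2 weeks all MHCII-high libraries were above all MHCII-low ones, and at 4 weeks replicate 3 fell within the MHCII-low range. The difference was 2.27 ± 0.50 (SE, adjusted p = 0.0067) averaged over both times, and its smallest p in a single comparison was at 2 weeks, at 2.41 ± 0.71 (SE, adjusted p = 0.073). Its paralog Ifitm2, which may share reads, instead rose from control, from 699 and 473 to 3222, 2167 and 2969, by 2.25 ± 0.26 (SE, adjusted p = 1.3e-05).

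Rsad2 (chr12:26442753-26456452, minus strand) encodes viperin, which makes a chain-terminating nucleotide, and sits beside its partner Cmpk2 on chromosome 12. It had 47.9 and 86.1 normalized counts in controls, 206, 62.1 and 130.5 (2 weeks) and 22.3, 57.8 and 57.6 (4 weeks) in MHCII-low cells, and 532, 190.1 and 227 (2 weeks) and 335, 126 and 127 (4 weeks) in MHCII-high cells. At 4 weeks the populations did not overlap, while at 2 weeks 1 MHCII-low library lay above 1 MHCII-high library. The difference was 1.64 ± 0.43 (SE, adjusted p = 0.022) averaged over both times, and it was lost without MHCII-low replicate 2 or MHCII-high replicate 1 at 2 weeks, or without replicate 1 of either population at 4 weeks (adjusted p up to 0.079). With the share of mitochondrial ribosomal RNA as a covariate the adjusted p over both times was 0.063 for Rsad2, 0.059 for Mx1 and 0.054 for Mx2, Oas2 also failed to pass, and Ifi44, Ifitm3, Irf7 and Irf9 still passed. Cmpk2, with 19.5 to 217 normalized counts, differed by −0.02 ± 0.47 (SE, adjusted p = 0.99) in this comparison. Isg20, an RNA-degrading exonuclease, had 25.7 and 66.3 normalized counts in controls, 76.1, 74.8 and 19.3 (2 weeks) and 34.3, 25.5 and 21.3 (4 weeks) in MHCII-low cells, and 70.5, 0 and 1.7 (2 weeks) and 49.9, 12.6 and 4.9 (4 weeks) in MHCII-high cells. At 2 weeks 1 of the 3 MHCII-high libraries lay within the MHCII-low range and 2 far below it, and no comparison passed with all libraries. Without MHCII-high replicate 1 at 2 weeks Isg20 was lower in MHCII-high cells, by a log2 difference of −4.90 ± 1.13 (adjusted p = 0.035) at 2 weeks and −2.84 ± 0.76 (adjusted p = 0.03) averaged over both times. Bst2, which tethers budding virus, had 9.3 to 115 normalized counts and no call. Adar, Eif2ak2 and Samhd1, which edit RNA, stop translation and deplete nucleotides, ranged from 867 to 1568, 1213 to 3106 and 22604 to 32385, and each was within 0.5 on the log2 scale in all 6 comparisons of 2 groups.

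**Figure D4:**
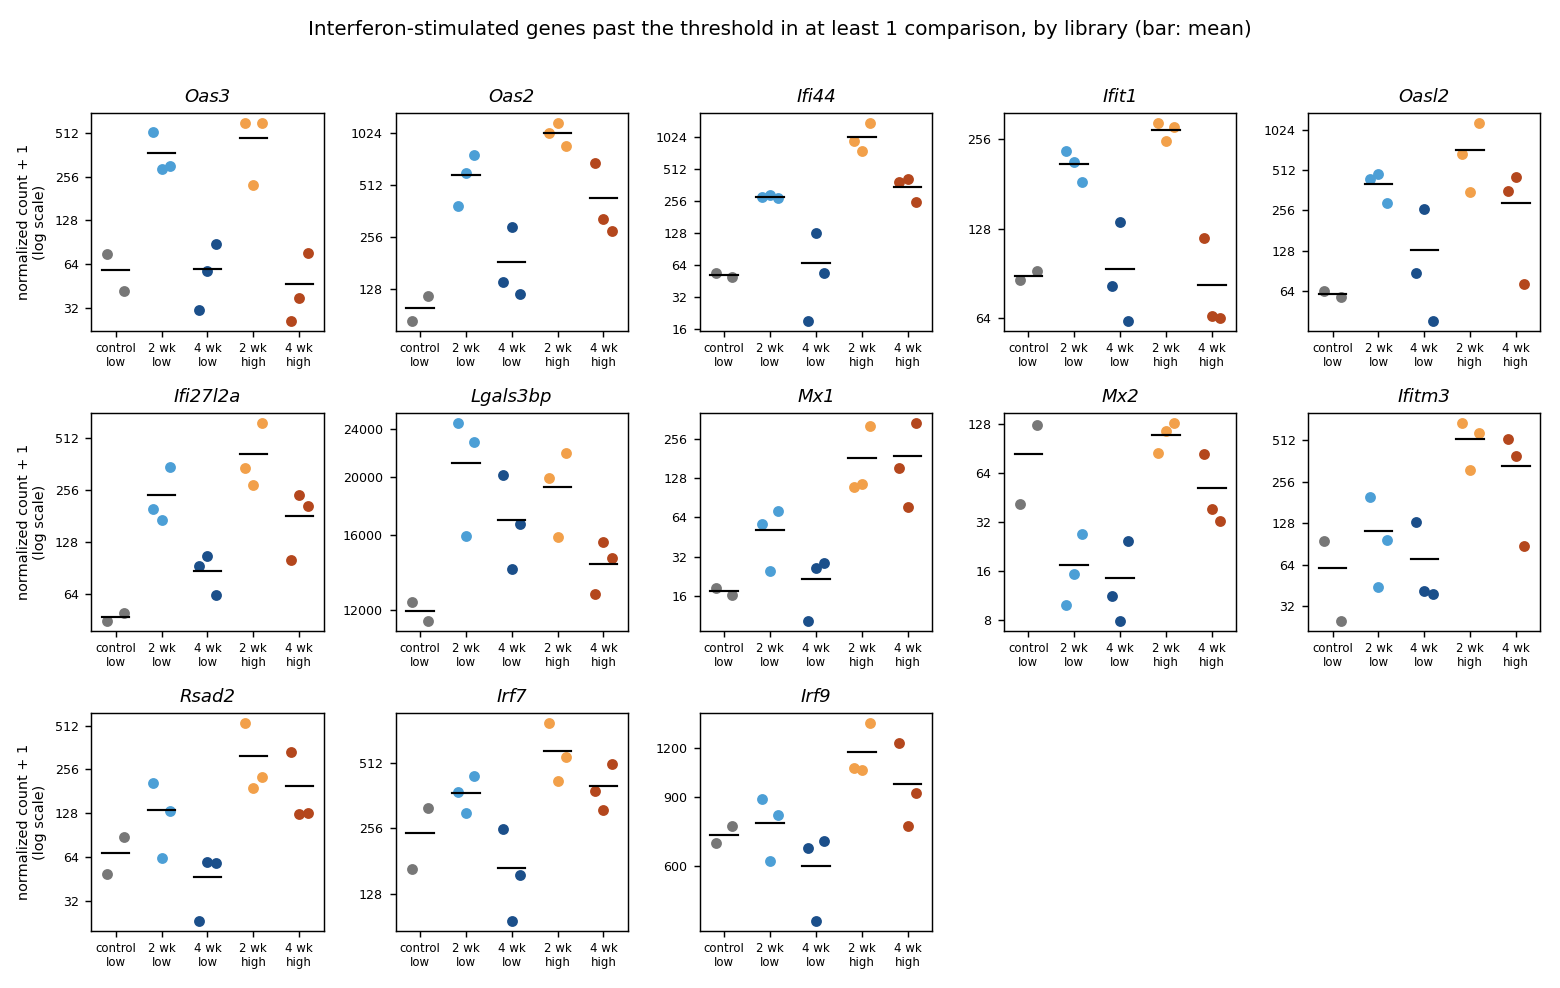
Normalized count + 1 (log scale) of the 13 members that passed in at least 1 comparison, by group; points are libraries in replicate order and bars are group means. All Oas3 and Ifit1 values of both 2-week groups lie above those of the other groups, Ifi44 and Oas2 are highest in MHCII-high cells at 2 weeks, and Mx1 is above 75 in all 6 MHCII-high libraries and below 71 in all MHCII-low ones.

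The ADP-ribosylation and ubiquitin group gave 0 calls. Parp9 and Dtx3l, which act as a complex, and Parp14 lie together on chromosome 16. Parp9 and Dtx3l overlap on opposite strands, so reads may be shared because the use of strand in counting is not given in the sources used here. Parp9 ranged from 1149 to 1499, Dtx3l from 2195 to 3378 and Trim30a, which may share reads with Trim30d, from 3302 to 5784 normalized counts, and these 3 were within 0.5 on the log2 scale in all 6 comparisons. Parp14 had 4123 and 4407 in controls and 3020.5, 3572 and 2426 in MHCII-low cells at 2 weeks, all of the latter lower. In all, 9 of 39 members (23.08%) were that level across groups, against 26.62% of all genes: Adar, Dtx3l, Eif2ak2, Herc6, Ifih1, Parp9, Samhd1, Trim30a and Zbp1.

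Of the 8 nuclear, trafficking and other interferon-induced proteins, Ifi44, Ifi27l2a and Lgals3bp passed. Ifi44 (chr3:151730922-151749960, minus strand), a cytoplasmic protein linked to growth arrest, had 52.6 and 48.2 normalized counts in controls, 277, 288 and 276 (2 weeks) and 18, 128 and 53.3 (4 weeks) in MHCII-low cells, and 945, 756 and 1391 (2 weeks) and 385, 413 and 252 (4 weeks) in MHCII-high cells. In MHCII-low cells the 2-week libraries lay together, above both controls and all 4-week libraries, and in MHCII-high cells the 2-week libraries were the highest of all 14. Ifi44 and Oas2 were the members that passed in the comparison with control, in the difference between populations and in the change over time of MHCII-low cells. It rose from control by 2.45 ± 0.57 (SE, adjusted p = 0.023) and fell from 2 to 4 weeks by 2.46 ± 0.51 (adjusted p = 0.015) in MHCII-low cells. MHCII-high cells exceeded MHCII-low cells by 2.75 ± 0.51 (SE, adjusted p = 0.0028) at 4 weeks and by 2.29 ± 0.36 (SE, adjusted p = 0.00023), or 4.89-fold, averaged over both times. At 2 weeks the difference was 1.83 ± 0.51 (SE, adjusted p = 0.055). The differences between populations at 4 weeks and over both times passed without each single library, the former not when only its 2 groups were fitted (adjusted p = 0.23). The fall was lost without any 2-week library or replicate 1 at 4 weeks (up to 0.085), and the rise from control whichever of its 5 libraries was left out (up to 0.22).

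Ifi27l2a (chr12:103442167-103443680, minus strand), a small membrane protein of mitochondria and nuclear envelope, had 43.6 and 48.2 normalized counts in controls, 197, 170.4 and 348 (2 weeks) and 91.8, 105 and 61.8 (4 weeks) in MHCII-low cells, and 343, 272 and 624 (2 weeks) and 99.9, 237 and 204 (4 weeks) in MHCII-high cells. Both controls were below all 12 other libraries. It rose by 2.28 ± 0.53 (SE, adjusted p = 0.025) at 2 weeks, was at 0.86 ± 0.53 (SE, adjusted p = 0.89) at 4 weeks, and fell by 1.31 ± 0.34 (adjusted p = 0.037) between the times over both populations. Its near copy Ifi27l2b had at most 7 reads in a library. Lgals3bp (chr11:118392751-118402092, minus strand) had 12365 and 11508 normalized counts in controls, 24565, 15917 and 22815 (2 weeks) and 20159, 14061 and 16689.7 (4 weeks) in MHCII-low cells, and 19874, 15855 and 21910.2 (2 weeks) and 12735, 15555 and 14637 (4 weeks) in MHCII-high cells. All were above the controls, by 0.80 ± 0.20 (SE, adjusted p = 0.042) at 2 weeks, and the calls of Ifi27l2a and Lgals3bp were each lost without every library but replicate 2 at 2 weeks (adjusted p up to 0.22 and 0.39). The populations differed in Lgals3bp by −0.18 ± 0.13 (SE, adjusted p = 0.46). Rtp4, a chaperone of receptors, had 35.4 and 127 normalized counts in controls, 129.8, 52.5 and 99.1 (2 weeks) and 6.9, 26.5 and 20.3 (4 weeks) in MHCII-low cells, and 113, 98.3 and 146 (2 weeks) and 66.6, 32.9 and 54.8 (4 weeks) in MHCII-high cells. In both populations every 4-week library lay below every 2-week one, and the change in MHCII-low cells of −2.41 ± 0.72 (SE, adjusted p = 0.17) did not pass. Xaf1, an inhibitor of the anti-apoptotic protein XIAP, went from 1264, 782 and 888 to 539, 598 and 589.6 and did not pass either. Sp100, a nuclear-body protein, ranged from 1333 to 2888, Ifi35 from 182 to 452 and Phf11d, which has close paralogs (Phf11a, Phf11b and Phf11c), from 105 to 406 normalized counts, and these 3 gave 0 calls.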

How the data were processed

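Messenger RNA was captured on beads, amplified with a whole-transcriptome kit and made into libraries with a transposase kit, per the labels' protocols. The authors deposited 1 table of normalized counts per gene and library, treated here as a signal, per the file headers, which also give the GC content of each gene as a percentage deposited by the authors. STAR, DESeq2 and mm10 are named per the submitters' processing notes. For their versions and roles, and for the use of strand in counting, nothing is given in the sources used here. Coordinates are those of the table, where 36 of 39 member spans were identical to GENCODE M21 on GRCm38 and all 39 overlapped it.

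The values were whole multiples of what 1 read is worth, with a tolerance of 0.05 for rounding, so reads per library were recovered. Because the table holds normalized values and not raw counts, the planned count test was run as an alternative. Genes with 10 or more normalized counts in 2 or more libraries (17390) were tested on log2(value + 1) with limma 3.58.1 (R 4.3.3), trend on, over all 14 libraries in 1 fit, with Benjamini-Hochberg adjustment over all genes and a threshold of 0.05. Fold changes on this scale understate those of low genes, and fold changes are given as log2 ± SE. There were 8 comparisons, and the mean change over time was added after the data were seen. Alternatives were edgeR 4.0.16, DESeq2 1.42.0 and limma voom on recovered reads, TMM factors, pseudocounts of 0.5 and 10, no filter, a CPM filter of 5, the mitochondrial ribosomal RNA share as a covariate, a GC trend removed, only the groups compared, a replicate block and leaving out each library. The scripts were tested on simulated data.

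The 39 members, the role groups and the other lists were chosen with earlier results of these data known. Full values were given for members past the threshold in a comparison or among its 3 smallest p-values, and the others by range, except Stat2, Oas1a, Isg15, Usp18, Parp14 and Xaf1, which were detailed after their values were seen. Of the pathway lists, up to 3 genes per comparison with the smallest p were named, with the receptors, ligands and close paralogs, and 1 listed gene is not reported here. Rows without a gene symbol (652) could not hold a member. Python 3.11.15, pandas 2.3.3, numpy 2.4.6 and matplotlib 3.10.9 were used for summaries and plots.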

Additional observations from a re-analysis of the deposited data

How the results depend on the processing

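The number of members called was compared with the main fit under each alternative, and the larger moves are listed below. Smaller moves are not all listed. With DESeq2 7 members passed from control to 2 weeks and 11 between populations averaged over both times. It called 660 and 2122 of all genes there, against 332 and 1254 by limma. For the added comparison over time (main 6) the member count was 9 with DESeq2 and 4 with no filter. These called 875 and 344 of all genes, against 510 in the main fit. DESeq2 called 1055 of all genes between populations at 2 weeks and 898 at 4 weeks, against 499 and 434 by limma. From control to 2 weeks in MHCII-low cells (main 5) the member count was 2 with no filter and 0 with only the groups compared. These called 341 and 36 of all genes. Between populations at 2 weeks (main 0) the member count was 1 with edgeR, 4 with DESeq2, 2 with limma voom and 2 with a pseudocount of 10. It was 1 with the CPM filter and 1 with only the groups compared. Of all genes, 583 passed with a pseudocount of 10, 491 of 9942 with the CPM filter and 311 with only the groups compared. At 4 weeks (main 2) the member count was 6 with DESeq2, 1 with limma voom, 1 with no filter and 0 with only the groups compared. The last 3 called 248, 282 and 56 of all genes. Averaged over both times (main 8) the member count was 5 with limma voom and 5 with no filter, where 1270 and 917 of all genes passed. It was 4 with the mitochondrial ribosomal RNA share as a covariate, where 500 of all genes passed. From 2 to 4 weeks in MHCII-low cells (main 3) the member count was 1 with limma voom. It was 0 with no filter and 0 with only the groups compared. These 3 called 140, 101 and 15 of all genes. In MHCII-high cells (main 1) the member count was 4 with DESeq2, where 638 of all genes passed against 186 by limma. It was 0 with only the groups compared, where 0 of all genes passed. Leaving out 1 library gave 0 to 3 from control to 2 weeks, 0 to 1 between populations at 2 weeks, 1 to 2 at 4 weeks, 5 to 9 over both times, 0 to 2 and 1 to 3 over time in MHCII-low and MHCII-high cells, and 4 to 6 averaged over both. Of these alternatives, none turned the direction of a called member. The cause of these moves was not tested.

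With a replicate block the count between populations at 2 weeks was 2, at 4 weeks 3 and over both times 8. Libraries of the same number and time correlated at 0.009 to 0.107 after removal of group means, with 1 of 6 pairs over 0.1. The 12 pairs of other numbers at the same time ran from −0.124 to 0.077. Correlations this low, from few libraries a group, cannot decide whether equal numbers mark 1 animal. The CPM filter left 30 of 39 members in the test. The controls are 2 libraries, 7 members had under 10 reads in a library, and MHCII-high libraries at 4 weeks were shallower than those at 2 weeks, which limits low members.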

Other observations

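A wider list of 53 other type I interferon-stimulated genes, 49 of them tested, was described in the same way. In MHCII-low cells at 2 weeks 4 rose from control, where 1.48% of all genes rose. At an unadjusted p under 0.05, 10 were higher and 5 lower, where 2202 of all 17390 genes reached it in either direction. The median log2 fold change was 0.12, with 21 of 49 below 0, against a median of −0.09 over all genes. From 2 to 4 weeks 3 fell, with a median of −0.16, where 0.748% of all genes fell and their median was 0.03. The other genes that rose were Ifitm2, Ifi207 and Oas1g, and the others that fell were Ifitm2 and Ifit1bl1. Slfn5 is detailed because it passed in both populations, a choice made after its values were seen. Slfn5, a member of the Schlafen family, had 228 and 296 normalized counts in controls, 926, 791 and 1364 (2 weeks) and 202, 254 and 455 (4 weeks) in MHCII-low cells, and 3583, 2824 and 4496 (2 weeks) and 1101, 934 and 1523 (4 weeks) in MHCII-high cells. All 2-week libraries of each population lay above those at 4 weeks, and all MHCII-high libraries above the MHCII-low ones of the same time. Slfn5 rose from control by 1.94 ± 0.33 (SE, adjusted p = 0.0018) in limma's test. In MHCII-low cells it fell by 1.80 ± 0.30 (adjusted p = 0.0018) and in MHCII-high cells it fell by 1.62 ± 0.30 (adjusted p = 0.0094) from 2 to 4 weeks. Its difference between populations was 1.83 ± 0.30 (SE, adjusted p = 0.00092) at 2 weeks and 2.02 ± 0.30 (SE, adjusted p = 0.0003) at 4 weeks.

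Of 31 interferon-gamma-inducible genes, 27 were tested, and 2 rose from control to 2 weeks, where 1.48% of all genes did. In MHCII-low cells H2-K1, a class I antigen-presenting molecule, rose by 0.92 ± 0.21 (SE, adjusted p = 0.024) and Ciita, the master regulator of MHC class II genes, by 1.54 ± 0.36 (SE, adjusted p = 0.027) from control to 2 weeks. From 2 to 4 weeks 0 of the 27 passed in either population by limma. An unadjusted p under 0.05 was reached by 3 in MHCII-low and 6 in MHCII-high cells, against 1300 and 2426 of 17390 genes. Averaged over both populations 1 rose and 1 fell, where 0.84% of all genes rose and 2.09% fell. No other tool's count was made for this list. Between the populations 3 of the 27 were higher in MHCII-high cells at 2 weeks, 1 at 4 weeks and 3 averaged over both times. In these comparisons 0 were lower, and 398, 341 and 870 of all 17390 genes were higher. Ciita differed by 3.79 ± 0.33 (SE, adjusted p = 4.1e-07) at 2 weeks and 4.23 ± 0.33 (SE, adjusted p = 5e-08) at 4 weeks, in cells that were sorted on MHCII. The interferon-gamma gene itself, Ifng, had at most 2.6 normalized counts in a library.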
